A study of Mus musculus with 60 samples.

Results

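H3K27me3 was compared between mouse mesenchymal progenitor cells that carried a histone H3 transgene with arginine 2 changed to cysteine (H3R2C) and cells that carried the unchanged transgene (H3WT). The comparison used the 6 anti-H3K27me3 samples of these genotypes among the 60 samples of the series, chosen by genotype and antibody. All cells were C3H 10T1/2 (Clone 8), an untreated line of mouse mesenchymal progenitors that was given the transgene by lentivirus, with the human H3C2 coding sequence (an H3.1 gene) behind the EF1 promoter and with HA and FLAG tags at its C-terminal end, and was then selected with puromycin. The endogenous H3 genes remained, so the tagged histone was only a part of the H3 in these cells, in H3WT and H3R2C alike. CUT&RUN, which cuts out and sequences the DNA around antibody-bound histones, gave a list of peaks for each labelled sample. Replicates 1 and 2 of each genotype had lists with identical values and were counted as 1 sample, which left 2 independent libraries per genotype. P-values therefore measure only the spread between these libraries, which may be technical.

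H3K27me3 is written by Polycomb Repressive Complex 2 (PRC2) and is known for covering the starts of silent developmental genes, often as wide domains over CpG islands, which are stretches rich in CG dinucleotides. In mesenchymal progenitors such domains lie over genes of other lineages, such as those of neurons, endoderm and heart, while genes in use lack the mark. Homeobox genes, including the 4 Hox clusters, are the textbook examples.

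Because loss and gain of the mark at gene starts differed with the CG content of the start (values below), promoters of 5 genes of the named regions are shown first, from RefSeq for GRCm38.p6, the build to which mm10 corresponds. Each runs from 250 bases before to 50 bases after an annotated start, 5′ to 3′, with CG dinucleotides in capitals. Sox21, a neural transcription factor gene whose peak was lost in H3R2C, has 22 of them (chr14:118236981-118237280, minus strand). Skor1, which encodes a transcriptional corepressor of neurons, and Tchh, which encodes trichohyalin of the hair follicle, kept a peak but at lower signal, and they stand at the ends of the range with 46 and 1 (chr9:63148912-63149211, minus strand, and chr3:93442080-93442379, plus strand). Adamtsl2, which encodes a secreted matrix glycoprotein and whose start gained a peak, has 8 (chr2:27079129-27079428, plus strand). Lgr6, which encodes a receptor for R-spondins and had a higher signal in H3R2C, has 24 (chr1:135105227-135105526, minus strand). The table of promoters matched 22 of the 42 genes in named regions.
Sox21: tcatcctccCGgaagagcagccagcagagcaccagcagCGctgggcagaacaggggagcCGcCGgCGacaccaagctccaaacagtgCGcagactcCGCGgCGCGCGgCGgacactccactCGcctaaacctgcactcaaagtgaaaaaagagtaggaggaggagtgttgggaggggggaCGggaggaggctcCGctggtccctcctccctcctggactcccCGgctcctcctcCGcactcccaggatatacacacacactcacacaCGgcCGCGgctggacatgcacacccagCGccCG
Skor1: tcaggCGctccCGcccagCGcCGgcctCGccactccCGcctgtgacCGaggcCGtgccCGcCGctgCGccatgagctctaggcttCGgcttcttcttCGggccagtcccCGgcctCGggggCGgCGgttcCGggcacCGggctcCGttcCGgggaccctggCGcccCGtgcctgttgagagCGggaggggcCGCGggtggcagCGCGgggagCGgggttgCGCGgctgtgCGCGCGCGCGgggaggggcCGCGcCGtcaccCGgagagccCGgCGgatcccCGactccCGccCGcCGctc
Tchh: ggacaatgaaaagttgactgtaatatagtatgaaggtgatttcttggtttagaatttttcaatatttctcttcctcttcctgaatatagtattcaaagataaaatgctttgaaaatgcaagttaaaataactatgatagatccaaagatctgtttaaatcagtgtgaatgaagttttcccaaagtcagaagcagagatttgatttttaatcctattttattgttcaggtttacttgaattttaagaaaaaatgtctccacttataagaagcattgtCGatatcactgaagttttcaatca
Adamtsl2: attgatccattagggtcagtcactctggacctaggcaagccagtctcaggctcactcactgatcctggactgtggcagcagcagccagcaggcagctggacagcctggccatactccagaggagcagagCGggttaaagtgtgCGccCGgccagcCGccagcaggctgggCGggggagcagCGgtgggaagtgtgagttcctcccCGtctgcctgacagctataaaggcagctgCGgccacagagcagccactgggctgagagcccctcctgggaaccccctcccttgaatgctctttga
Lgr6: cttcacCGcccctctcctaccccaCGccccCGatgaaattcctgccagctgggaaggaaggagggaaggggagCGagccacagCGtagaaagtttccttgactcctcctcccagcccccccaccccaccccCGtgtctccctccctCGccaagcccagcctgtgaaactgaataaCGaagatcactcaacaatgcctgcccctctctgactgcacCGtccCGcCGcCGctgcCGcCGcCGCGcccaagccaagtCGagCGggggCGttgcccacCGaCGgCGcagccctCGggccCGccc

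The 4 lists held 20543 and 22083 peaks in H3WT and 23144 and 23168 in H3R2C. On autosomes they covered 86.7 and 88.1 Mb in H3WT, against 125 Mb in H3R2C replicates 1 and 2 and 73.3 Mb in H3R2C replicate 3, so the covered length of H3R2C lay on both sides of that of H3WT. Merging the peaks of the 4 lists gave 31283 regions, of which the 17896 with a call in both H3WT or in both H3R2C libraries are the consensus regions, 16004 of them autosomal. A region was called in a library when a peak overlapped it by at least 1 bp. The signal of a region was the summed total signal of its peaks, where total signal is read coverage added up over the bp of a peak, divided by the median over the 8402 regions called in every list. A scaled signal of 1 is therefore that of a median shared region, and a library without a peak has 0. The weakest peak of a list had a scaled signal of 0.204 to 0.239, so a region without a peak may still carry the mark below that level. Across autosomal regions called in every list, the log2 signal of the libraries correlated at r = 0.919 within H3WT and 0.911 within H3R2C, and at 0.724 to 0.769 between genotypes. This scaling removes any change shared by all regions, and fewer cells with the mark cannot be told apart from less of the mark per cell.

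On autosomes H3R2C both lost and gained the mark. Of 11356 regions with a peak in both H3WT libraries, 1828 (16.1%) had none in either H3R2C library, and of 12475 regions with a peak in both H3R2C libraries, 2967 (23.8%) had none in either H3WT library. Over all 16004 autosomal consensus regions, 11.4% were lost and 18.5% were gained. With limma on log2(scaled signal + 0.25) and Benjamini-Hochberg adjustment, 2654 regions (16.6%) were lower and 3728 (23.3%) were higher in H3R2C. Most of these calls rested on a missing peak, since 1807 of the lower regions had no H3R2C peak and 2929 of the higher regions had no H3WT peak, and a region without a peak takes 1 fixed value and shows no spread. Among the 7827 autosomal regions with a peak in every list, 936 (12%) were lower and 920 (11.8%) higher, with a median change of −1.06 and 1.06 on the log2 scale, and the median over all 7827 was 0.003. This balance depends on the scaling, which sets the median of nearly these same regions to 1 in each library. Scaled by total peak signal, 715 were lower and 1061 higher, and scaled by the autosomal median, 1074 and 851. Lost regions numbered 3866 without H3WT replicate 3, 3638 without the list of H3WT replicates 1 and 2, and 3383 without that of H3R2C replicates 1 and 2. Gained regions numbered 8065 without H3R2C replicate 3 and 5972 without H3R2C replicates 1 and 2, so counts by peak calls rest on both libraries of a group. Leaving out a list loosens the rule for lost and gained regions, so these counts rise by the rule itself. The limma counts over regions with a peak in every list fell to 521 lower and 289 higher without H3R2C replicate 3, and to 555 and 312 without H3R2C replicates 1 and 2. Over all regions the higher calls were 8250 and 6179 without those same lists, 2305 without H3WT replicate 3 and 1625 without the other H3WT list, and the lower calls were 4057 without H3WT replicate 3. When the highest coverage within a region replaced the total signal, 0 regions with a peak in every list passed limma in either direction, with 770 lower and 929 higher at an unadjusted p under 0.05.

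Losses and gains differed in where they lay. Lost regions held the start of a protein-coding gene in 17% of cases and gained regions in 6.17%, compared with 14.2% of all consensus regions, where a start is held when the region comes within 1 kb of it. Of the regions that were lower with a peak in every list 38.1% held a start, and of those that were higher 18.4%. The share over all regions with a peak in every list was 18.7%, so higher regions were near it. Lost and gained regions were short, with medians of 3.75 and 3.95 kb against 5.75 kb for all consensus regions. Medians were 12.9 kb for lower and 11.3 kb for higher regions, against 8.55 kb for regions with a peak in every list. The median CG content of whole regions was 10.0 CG dinucleotides per kb in lost and 8.51 in gained regions, against 9.06 in all consensus regions. It was 11.6 in lower and 9.55 in higher regions, against 9.30 in regions with a peak in every list, so higher regions were not poor in CG.

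Of 20807 autosomal protein-coding genes, 1809 had a peak within 1 kb of their start in both H3WT libraries and 1482 in both H3R2C libraries. The peak at the start was lost at 434 genes (24% of the 1809, and 2.09% of all genes) and gained at 208 (14% of the 1482, and 1% of all genes). The median number of CG dinucleotides in the 300 bases at the start was 18 at the lost starts and 5 at the gained starts, against 8 where every list had a peak and 12 over all autosomal genes. Starts with 15 or more of them made up 57.8% of the lost, 21.2% of the gained and 43.8% of all. The promoters of Sox21 and Adamtsl2 shown above lie on either side of that number, but other genes departed from this order. Hivep2, whose region was gained, has 35, and in higher regions Lgr6 has 24 and Igdcc3 38. Tchh, in a lower region, has 1, whereas Skor1, also lower, has 46 and Sv2c, lost, has 32.

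The share of starts that lost their peak rose in steps with CG content. Of the starts with a peak in both H3WT libraries, 11.3% of those with 0 to 4 CG dinucleotides lost it (55 of 488), 22.9% of those with 5 to 14 (128 of 559), 29.9% of those with 15 to 24 (109 of 365) and 35.8% of those with 25 or more (142 of 397). The other mutants did not show this order at the same starts. Without a peak in either H3R8C library were 3.89%, 4.83%, 2.74% and 3.78% of the same 4 sets, and without a peak in either H3R26C library 12.5%, 10.0%, 6.85% and 5.79%. Gains were most frequent at CG-poor starts, at 18.2%, 14.1%, 8.16% and 10.2% of the starts with a peak in both H3R2C libraries. The order of losses held at every level of H3WT signal: in the lowest of 4 equal groups of starts by H3WT signal 35.2% with fewer than 15 CG dinucleotides and 58.1% with 15 or more were lost, and in the highest 6.07% and 18.0%. These shares are a description of the libraries, in which genes are not replicates, and neighbouring starts can share a region.

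**Figure D1:**
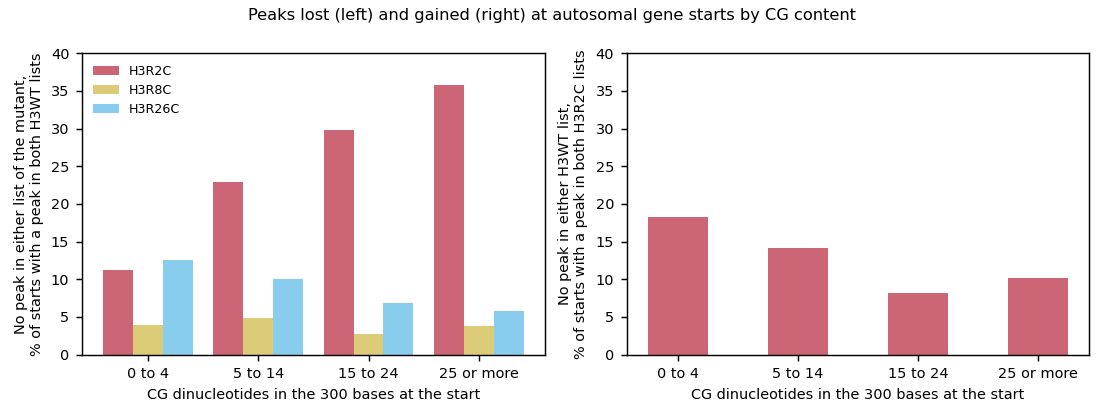
Share of autosomal gene starts that lost (left) or gained (right) an H3K27me3 peak, in %, by the number of CG dinucleotides in the 300 bases at the start, with bars for the mutant named in the key and, on the right, H3R2C alone. Losses in H3R2C rise from 11.3% to 35.8% from the lowest to the highest CG content, while the bars of H3R8C stay between 2.74% and 4.83%.

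The 10 lost regions of highest H3WT signal that hold a gene start contained Eya1, a coactivator of ear and kidney development, Sox21, Sv2c, a synaptic vesicle protein, Sim2, a basic helix-loop-helix (bHLH) factor of the nervous system, and Cxcl14, a chemokine. The others contained Pou3f3, a POU homeobox factor, Myh13, the myosin heavy chain of extraocular muscle, Hs3st3b1, a heparan sulfate sulfotransferase, Tbx5, a T-box factor of heart and forelimb, and Nkx1-1, a homeobox factor. The Eya1 region (chr1:14289251-14320650, 31.4 kb) had a scaled signal of 7.21 in H3WT replicates 1 and 2 and 5.86 in H3WT replicate 3, and no peak in either H3R2C library (limma, adjusted p = 0.00205). Sox21 lay in a region of 17.1 kb (chr14:118224201-118241300) with 5.39 and 5.71 in H3WT and no peak in H3R2C. The Tbx5 region (chr5:119829851-119844950) had 4.34 and 4.04 in H3WT and no peak in H3R2C. In all 10 regions the H3WT libraries lay between 3.74 and 7.21, and each of the 4 libraries of H3R8C and H3R26C had a peak there.

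The regions that kept a peak but fell furthest in limma, by p, were led by Nkx2-5, the homeobox gene of the heart (chr17:26836151-26853000). Its scaled signal was 6.31 and 6.89 in H3WT and 0.244 and 0.313 in H3R2C, a fall by 3.70 on the log2 scale (SE 0.24, adjusted p = 9.33e-08), and the H3R2C values were close to the weakest peaks that the lists hold. Skor1 had 7.48 and 8.38 in H3WT and 0.736 and 0.386 in H3R2C, and fell by 3.37 (SE 0.24, adjusted p = 1.58e-07). Irx4, an Iroquois homeobox gene of the heart ventricle, had 6.78 and 6.69 in H3WT and 0.745 and 0.411 in H3R2C. The groups did not overlap in any of these regions, but the regions were chosen by p from these same values. Of all 936 lower regions with a peak in every list, 935 had no overlap, which follows largely from calling them on these same values. The share without overlap over all regions with a peak in every list was not counted. Foxa2, a forkhead factor of endoderm and floor plate, had the strongest domain of the 10, with 17.3 and 15.0 in H3WT and 3.22 and 3.10 in H3R2C, and fell by 2.26 (SE 0.19, adjusted p = 3.50e-07). The other 6 were Tchh, Kcnma1 (a calcium-activated potassium channel), Irx6, Pcdh8 (a protocadherin), Nkx2-2 and Vax1 (homeobox factors of the neural tube and the eye). Both H3R26C values also lay below both H3WT values at Nkx2-5 (1.54 and 2.17), Irx6 and Pcdh8, and not at the rest of the 10. With the highest coverage in place of the total signal all 10 kept their direction, with falls from 0.53 (Irx6) to 1.64 (Irx4) on the log2 scale, and none passed (adjusted p from 0.0823 to 0.161).

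**Figure D2:**
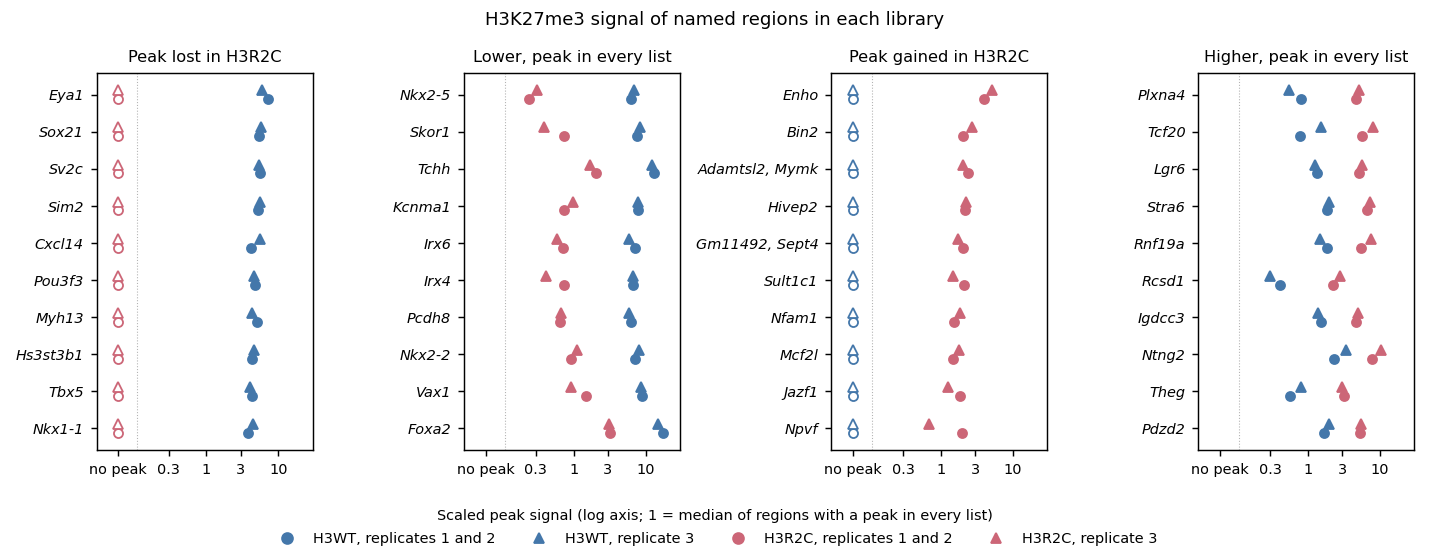
Scaled H3K27me3 peak signal (log axis, 1 is the median region with a peak in every list) of the 10 leading regions of each kind, with a point for each library and open points where the library has no peak. In every region the H3WT points lie right of the H3R2C points in the lost and lower panels and left of them in the gained and higher panels. The regions were chosen from these same values, so this separation follows from the choice.

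The 10 gained regions of highest H3R2C signal were at Enho, a secreted regulator of energy balance, Bin2, a membrane-shaping protein of blood cells, Adamtsl2 and Mymk, Hivep2, a zinc finger factor, and Gm11492 and Sept4, the latter a septin. The remaining 5 were at Sult1c1, a sulfotransferase, Nfam1, an immune receptor, Mcf2l, a guanine nucleotide exchange factor, Jazf1, a zinc finger protein, and Npvf, a neuropeptide precursor. The Enho region (chr4:41621851-41640450) had no peak in H3WT and a scaled signal of 4.04 in H3R2C replicates 1 and 2 and 5.13 in H3R2C replicate 3 (limma, adjusted p = 0.00205). H3R26C also had a peak at Enho in both libraries, with 2.25 and 3.84. At Hivep2 (chr10:13961301-13970950) the values were 2.14 and 2.21, and none of the other 6 libraries of H3WT, H3R8C and H3R26C had a peak. Npvf had the widest spread, with 2.00 and 0.693 in H3R2C (adjusted p = 0.0253), and its call was lost without either H3WT list (adjusted p = 0.168 without replicates 1 and 2 and 0.165 without replicate 3).

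Among regions with a peak in every list, Plxna4, a plexin of axon guidance, had the lowest p of those that rose (chr6:32571551-32597750). Its signal was 0.790 and 0.541 in H3WT and 4.57 and 5.17 in H3R2C, a rise of 2.49 on the log2 scale (SE 0.24, adjusted p = 1.74e-06). Lgr6 (chr1:135085501-135109800) had 1.34 and 1.24 in H3WT and 5.07 and 5.60 in H3R2C, a rise of 1.86 (SE 0.21, adjusted p = 9.75e-06). Stra6, the membrane transporter of retinol, had 1.82 and 1.96 in H3WT and 6.55 and 7.21 in H3R2C, and no peak in either H3R26C library. No H3WT value reached an H3R2C value at these genes, which were chosen by p from these same values. The same held at all 920 higher regions with a peak in every list, where it again follows largely from the call. The other 7 were Tcf20, Rnf19a, Rcsd1, Igdcc3, Ntng2, Theg and Pdzd2, with rises from 1.44 (Pdzd2) to 2.37 (Tcf20). Both H3R26C values also lay above both H3WT values at Plxna4 (3.66 and 4.12), Tcf20, Rnf19a, Ntng2 and Pdzd2. This was not so at Lgr6, Stra6, Rcsd1, Igdcc3 and Theg. Tcf20, Rnf19a and Pdzd2 lie on chromosome 15, where the median change over regions with a peak in every list was 0.43. Rcsd1 was no longer called without H3R2C replicates 1 and 2 (adjusted p = 0.0711). With the highest coverage the rises of the 10 were from 0.19 (Theg) to 1.03 (Tcf20), and none passed (adjusted p from 0.0823 to 0.510).

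The lists of gene families were read against the 2477 autosomal gene starts that lay in a consensus region, of which 29% were in lower regions (719) and 13.9% in higher ones (345), with 12.8% in lost (317) and 7.19% in gained regions (178). The starts in lower regions numbered 463 without H3WT replicate 3 and 477 without H3R2C replicates 1 and 2, those in higher regions 198 without H3WT replicate 3 and 116 without H3WT replicates 1 and 2, and those in gained regions 275 without H3WT replicate 3 and 364 without H3R2C replicate 3. With a list left out the rule for gained regions is looser. Homeobox genes outside the Hox clusters had the largest share in lower regions among the lists with at least 10 starts. Of 118 such genes 79 had a region, and 61 (77.2%) were in lower and 1 (1.27%) in higher regions. Among the 61 whose region had a peak in every list, 48 were lower and 1 was higher, with a median change of −0.98 on the log2 scale against −0.15 over the 1661 starts of that kind, of which 24.1% were lower and 12.3% higher. Without H3WT replicates 1 and 2, and likewise without H3WT replicate 3, the genes in lower regions numbered 33. The peak at the start itself was lost at 29 of the 76 homeobox genes that had it in both H3WT libraries.

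The homeobox genes that fell belong to many lineages. Lbx1, a factor of migrating muscle precursors and of the spinal cord, had among the strongest domains, with a signal of 18.9 and 19.5 in H3WT and 6.69 and 9.58 in H3R2C, and fell by 1.24 on the log2 scale (SE 0.21, limma, adjusted p = 0.000403). Otx2, a factor of the forebrain and the eye, had a signal of 13.9 and 12.6 in H3WT and 2.76 and 1.80 in H3R2C, and fell by 2.44 on the log2 scale (SE 0.21, limma, adjusted p = 4.68e-07). Pdx1, the pancreas factor, had 6.004 and 6.24 in H3WT and 1.37 and 1.13 in H3R2C, and fell by 2.09 (SE 0.21, adjusted p = 2.39e-06). Msx2, which acts in skull and limb, had 2.94 and 2.73 in H3WT and 0.302 and 0.248 in H3R2C. These genes were chosen as examples by their values, and their H3R2C values lay under both H3WT values. Isl1, a factor of motor neurons and heart, had 0.991 and 1.82 in H3WT and no peak in H3R2C. Noto, a notochord factor, was in a gained region, with no peak in H3WT and 0.472 and 0.673 in H3R2C. Alx4, of limb and skull, was the member that was higher among regions with a peak in every list, with 11.2 and 12.4 in H3WT and 16.3 and 19.6 in H3R2C (limma, adjusted p = 0.0415), and it did not pass over all consensus regions (adjusted p = 0.0644).

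**Figure D3:**
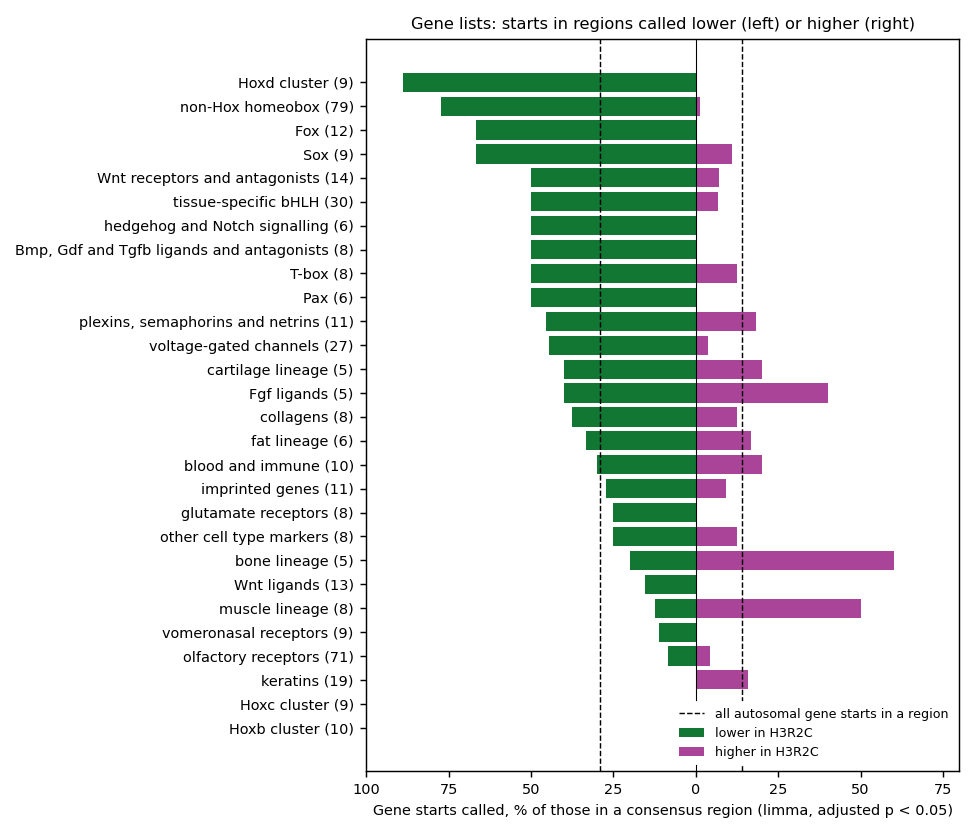
Share of gene starts in regions called lower (left) or higher (right) in H3R2C, in % of the starts of a list that lie in a consensus region, for lists with at least 5 such starts (number in brackets). Dashed lines mark all autosomal starts, 29% lower and 13.9% higher, and non-Hox homeobox genes reach 77.2% lower, while the single Hoxc region is called only in the fit over regions with a peak in every list.

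The 4 Hox clusters did not change alike. Hoxb, which patterns the trunk and hindbrain with the other clusters, had a peak at the start of all 10 genes in every library of both genotypes. The region of Hoxb1 to Hoxb9 had 89.5 and 82.5 in H3WT and 53.8 and 69.3 in H3R2C, and did not pass (−0.49, SE 0.32, limma, adjusted p = 0.292). The Hoxc cluster, from Hoxc13 to Hoxc4, lay under 1 region with 141 and 133 in H3WT and 48.1 and 54.8 in H3R2C, which fell by 1.41 (SE 0.34, adjusted p = 0.00558) in the fit over regions with a peak in every list and did not pass over all consensus regions (adjusted p = 0.0952). Hoxd fell too, by 1.47 (SE 0.19, adjusted p = 3.50e-05) over the region of Hoxd13, from 18.5 and 17.3 to 6.11 and 6.51. That region also held Evx2. For the end with Hoxa11 and Hoxa13 the values were 9.73 and 9.45 in H3WT and 2.75 and 3.28 in H3R2C, a fall by 1.60 (SE 0.19, adjusted p = 1.54e-05).

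Within Hoxc the loss was at one end. A single peak covered the whole cluster in each H3WT library (chr15:102891301-103072800 in replicates 1 and 2, and chr15:102893001-103077900 in replicate 3), and peaks covered all 116 kb from Hoxc13 to Hoxc4. In H3R2C the strongest peak began at chr15:103001401 in replicates 1 and 2 and at chr15:103015001 in replicate 3, and the covered length was 60.1 and 39.2 kb. The starts of Hoxc13, Hoxc12, Hoxc11, Hoxc10 and Hoxc5 had no peak in either H3R2C library, those of Hoxc9 and Hoxc8 had it in replicates 1 and 2 only, and those of Hoxc6 and Hoxc4 kept it in both. The annotated Hoxc5 gene used here begins next to Hoxc10, so its start does not mark the usual place of Hoxc5 in the cluster. In Hoxd the starts of Hoxd13 and Hoxd1, at its ends, had no peak in either H3R2C library and had one in both H3WT libraries. The covered length of Hoxd was 87.1 and 84.2 kb in H3WT and 54.9 and 47.8 kb in H3R2C. In H3R8C and H3R26C every Hoxc and Hoxd start had a peak in both libraries. The start of Hoxa11 also had no peak in either H3R2C library and had one in every library of H3WT, H3R8C and H3R26C.

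**Figure D4:**
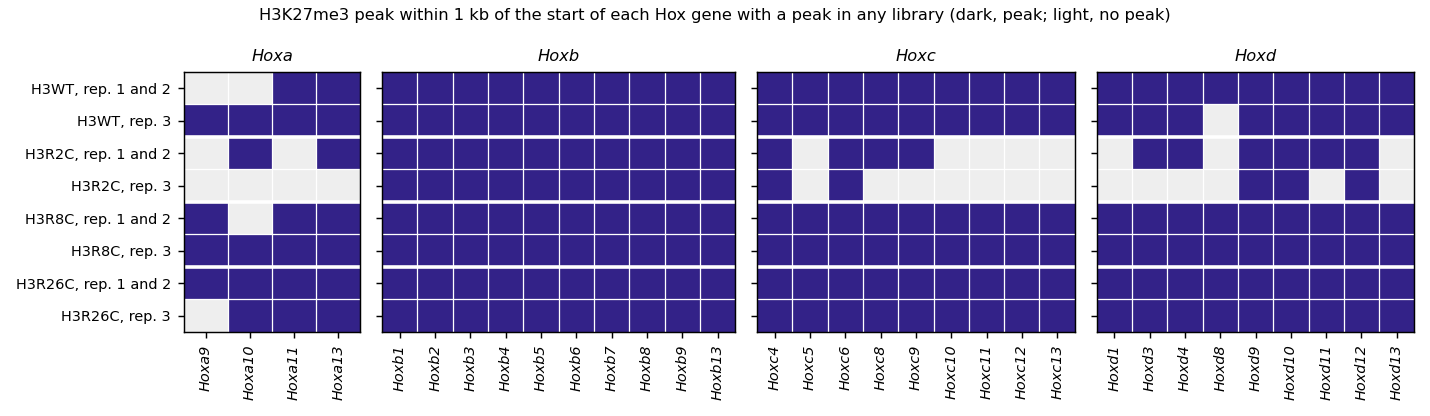
Presence of an H3K27me3 peak within 1 kb of the start of each Hox gene with a peak in at least 1 library (columns, by cluster) in each library of H3WT, H3R2C, H3R8C and H3R26C (rows), dark for a peak. The H3R2C rows are light from Hoxc10 to Hoxc13 and at Hoxc5, Hoxa11, Hoxd1 and Hoxd13, where all other libraries are dark.

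Other families of developmental regulators had 50% or more of their regions lower. Of 30 tissue-specific bHLH genes with a region, 15 were lower and 2 higher. Neurog1, which drives sensory neurons, had 15.9 and 15.2 in H3WT and 1.82 and 3.10 in H3R2C, a fall by 2.58 on the log2 scale (SE 0.22, limma, adjusted p = 4.46e-07). Hand2, of heart and limb, had 21.6 and 18.1 in H3WT and 6.86 and 8.75 in H3R2C, and Olig2, of oligodendrocytes and motor neurons, 12.9 and 14.6 in H3WT and 4.19 and 4.31 in H3R2C. The 2 that were higher were Msgn1, a gene of the presomitic mesoderm, and Myod1. Forkhead genes were lower in 8 of 12 regions and higher in 0, Sox genes lower in 6 of 9 and higher in 1, T-box genes lower in 4 of 8 and higher in 1, and Pax genes lower in 3 of 6 and higher in 0. Sox1, a neural gene, fell by 1.39 (SE 0.19, adjusted p = 6.22e-05) from 18.6 and 18.3 to 6.52 and 7.28. Pax6, of eye and forebrain, had 2.67 and 3.34 in H3WT and no peak in H3R2C. Zic2 and Zic5, which share a start region, had 11.3 and 11 in H3WT and only 0.315 and no peak in H3R2C. Sox8, by contrast, had no peak in H3WT and 1.20 and 0.465 in H3R2C, and Tbx4, of the hindlimb, rose from 3.26 and 3.88 to 6.58 and 7.33 (0.92, SE 0.19, adjusted p = 0.00215).

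Within a family, members with strong domains were not all called lower. Pax5, of B cells, had 40.2 and 38.4 in H3WT and 23.9 and 29.3 in H3R2C and did not pass (−0.57, SE 0.24, limma, adjusted p = 0.0954), and Pax2, of the kidney, had 51.4 and 52.6 in H3WT and 39.2 and 49.4 in H3R2C (−0.24, SE 0.28, adjusted p = 0.576). Both had more signal in either genotype than Pax7 had in H3WT. Gata4, of heart and endoderm, fell by 1.58 (SE 0.19, adjusted p = 1.48e-05) from 11.9 and 11.1 to 3.47 and 3.90, whereas its relative Gata5 had 9.26 and 11.6 in H3WT and 10.3 and 12.7 in H3R2C (0.14, SE 0.20, adjusted p = 0.661). Six6, of the eye, had 3.15 and 3.47 in H3WT and no peak in H3R2C, while Six3, of the forebrain, had 14.2 and 15.2 in H3WT and 9.36 and 13.1 in H3R2C and did not pass (adjusted p = 0.174).

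Of the 13 Wnt ligand genes with a region 2 were lower, Wnt1 and Wnt4, and 0 were higher, which is 15.4% against 29% of all starts. The Wnt ligand with the largest difference, Wnt8b, had 7.51 in both H3WT libraries and 5.24 and 6.29 in H3R2C, and did not pass (−0.37, SE 0.19, limma, adjusted p = 0.161). Of 14 genes for Wnt receptors and antagonists 7 were lower, among them Lgr5, the stem cell receptor for R-spondins, with 8.15 and 7.35 in H3WT and 3.84 and 4.72 in H3R2C, and 1 was higher, Lgr6. Of 8 genes for Bmp, Gdf and Tgfb ligands and antagonists 4 were lower and 0 higher, including Nog, the Bmp antagonist noggin, which fell by 1.69 (SE 0.21, limma, adjusted p = 2.90e-05) from 5.70 and 6.13 to 1.98 and 1.39. Fgf ligands went both ways among 5, with Fgf9 and Fgf12 lower and Fgf4 and Fgf23 gained, and of 6 genes of hedgehog and Notch signalling Ihh, Shh and Ptch1 were lower and 0 higher. Voltage-gated channel genes were lower in 12 of 27 regions and higher in 1, and Scn8a, a sodium channel of neurons, had 2.37 and 2.70 in H3WT and no peak in H3R2C. Gabbr2, a subunit of the metabotropic GABA receptor, fell by 3.22 (SE 0.28, adjusted p = 5.43e-07) from 3.59 and 4.99 to 0.204 and 0.265, and 3 of the 4 genes for GABA and glycine receptors with a region were lower. Among 11 genes for plexins, semaphorins and netrins 5 were lower and 2 higher, Ntng2 and Plxna4. Keratin genes were lower in 0 of 19 and higher in 3 (Krt27, Krt84 and Krt86), and of 71 olfactory receptor genes 6 were lower and 3 higher, shares of 8.45% and 4.23%. The differences between lists were not tested.

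Lists of mesenchymal and other lineages were small and mixed. Of 8 muscle genes with a region 4 were in higher regions, of which Mymk (myomaker, needed for myoblast fusion), Ttn (titin) and Chrna1 (a muscle acetylcholine receptor subunit) had no peak in H3WT and values of 0.513 to 2.38 in H3R2C. Myod1, the muscle determination gene, had 1.22 and 1.66 in H3WT and 2.60 and 3.43 in H3R2C, a rise of 0.95 (SE 0.24, limma, adjusted p = 0.00742), whereas Pax7, of muscle stem cells, fell by 1.96 (SE 0.19, adjusted p = 1.99e-06) from 8.81 in both H3WT libraries to 2.20 and 1.96 in H3R2C. Of 5 bone genes 3 were in higher regions: Alpl (alkaline phosphatase) and Sp7 (osterix), without a peak in H3WT and with 0.817 and 0.803, and 0.474 and 0.552, in H3R2C, and Pth1r (the parathyroid hormone receptor), which rose by 1.69 (SE 0.26, adjusted p = 0.000165) from 0.594 and 0.690 to 2.66 and 2.60. Of 4 endothelial genes Flt4, Sox17 and Tal1 were lower and 0 were higher. Of 6 fat genes Prdm16 and Zfp423 were lost and Retn was higher. Blood genes went both ways, with Gfi1, Ikzf1 and Ikzf3 lower and Gfi1b higher. Igf2, Gnas and Sfmbt2 were lost and Slc22a2 was higher among 11 imprinted genes with a region. The 3 tumour suppressor and senescence genes with a region, Wt1, Igfbp5 and Igfbp2, were all lower, and Wt1 had 1.57 and 1.53 in H3WT and no peak in H3R2C. Of 8 markers of other cell types Elavl3 and Sall4 were lost and Myod1 was higher. Neither of the 2 PRC genes with a region passed, and no start of 14 housekeeping genes or 12 markers of mesenchymal progenitors lay in a consensus region, which describes the mark and not their expression.

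Calls also formed runs along the chromosomes. With 16.6% of autosomal consensus regions lower and 23.3% higher, some runs arise without clustering, and whether there were more than that was not tested. At least 3 neighbouring consensus regions called in the same direction formed 234 runs of lower regions (1164 regions) and 381 runs of higher regions (1761 regions). The longest lower run had 19 regions, all lost, over 705 kb at chr11:67114201-67819400, from the skeletal myosin genes Myh2, Myh1, Myh4, Myh8 and Myh13 to Dhrs7c. Its summed signal was 22.5 and 20.0 in H3WT, and H3R2C had no peak there, while H3R8C had 15.3 and 24.9 and H3R26C 25 and 29.3. A run at Neurog1 and Cxcl14 (chr13:56197451-56462550) fell from 35.2 and 40.5 to 3.85 and 5.49 over 14 regions, and the run around Eya1 (chr1:14040901-14504650) lost all 10 of its regions. Iroquois genes lay in 3 such runs, with 13 regions around Irx1, 5 around Irx4 and 11 around Irx6.

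The longest higher runs had 17 regions each. The run at chr17:44070651-45372650 reached over Clic5, Runx2 (the master factor of bone) and Supt3, with 15 gained regions and a summed signal of 1.48 and 1.28 in H3WT and 23.4 and 22.5 in H3R2C, although no region of it held a gene start. The other lay at chr15:36151101-36547800 with Fbxo43 and Rnf19a, and rose from 8.86 and 8.30 to 31.8 and 40.1. Another, with 15 regions at chr2:26874351-27186900, held Adamts13, Adamtsl2, Mymk, Fam163b and Dbh, the gene of dopamine beta-hydroxylase. In a gene-free stretch at chr13:82846951-83383750 all 11 regions were gained, with 15.6 and 13.0 in H3R2C, while H3R8C had 1.26 in replicates 1 and 2 and no peak in replicate 3, and neither H3R26C library had a peak there. The longest gained region without a gene start lay 14.7 kb from that of Elfn2 (chr15:78675201-78704050, 28.9 kb), with 4.59 and 5.54 in H3R2C. Its counterpart among lost regions (chr3:62261801-62288850, 27.1 kb) lay 49.5 kb from the start of Arhgef26, with 5.06 and 4.36 in H3WT.

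Summed in windows of 1 Mb by the midpoint of each peak, 255 of 1523 autosomal windows were lower (16.7%) and 270 higher (17.7%) by limma. Lower windows of lowest p were chr15 from 102 to 103 Mb (Hoxc), chr11 from 67 to 68 Mb (Myh13), chr1 from 14 to 15 Mb (Eya1), chr13 from 71 to 72 Mb (Irx1) and chr1 from 11 to 12 Mb. The chr11 window fell from 30.9 and 28.4 to 3.24 and 3.49, or by 3.05 on the log2 scale (SE 0.19, adjusted p = 0.000326). The Hoxc window depended on an edge, since the long H3WT peak and the shorter H3R2C peak had their midpoints on opposite sides of it. With signal shared out over windows by bp it fell by 3.17 (SE 0.16, adjusted p = 0.000166), and its neighbour from 103 to 104 Mb, which rose by 1.00 by midpoints (adjusted p = 0.00377), gave −0.32 and did not pass (adjusted p = 0.170). The 5 higher windows were chr15 from 58 to 59 Mb, chr12 from 24 to 25 Mb, chr6 from 5 to 6 Mb, chr4 from 43 to 44 Mb and chr15 from 37 to 38 Mb. The first of these rose from 6.69 and 7.16 to 28.1 and 25.6 (1.92, SE 0.17, adjusted p = 0.00083). Without H3WT replicate 3 the counts were 120 lower and 124 higher, and without H3WT replicates 1 and 2 they were 130 and 140.

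Whole chromosomes also differed. Chromosome 15 had 300 gained and 48 lost regions among 930, and the median log2 signal of its regions with a peak in every list was 0.20 and 0.33 in H3WT and 0.75 and 0.79 in H3R2C. On chromosome 13 the numbers were 49 gained and 160 lost among 591, with medians of 0.35 and 0.44 in H3WT and 0.19 and 0.00 in H3R2C. The medians of chromosome 15 in H3R8C (0.33 and 0.33) and H3R26C (0.40 and 0.25) lay nearer to H3WT, whereas those of chromosome 13 were 0.02 and 0.11 in H3R8C and 0.78 and 0.84 in H3R26C. Chromosomes 1 and 16 were also lower, with median changes of −0.23 and −0.26, and chromosome 10 was higher at 0.21. With the median change of each chromosome set to 0, 2523 regions were lower and 3523 higher, against 2654 and 3728 without it, and the non-Hox homeobox genes in lower regions numbered 54 in place of 61.

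**Figure D5:**
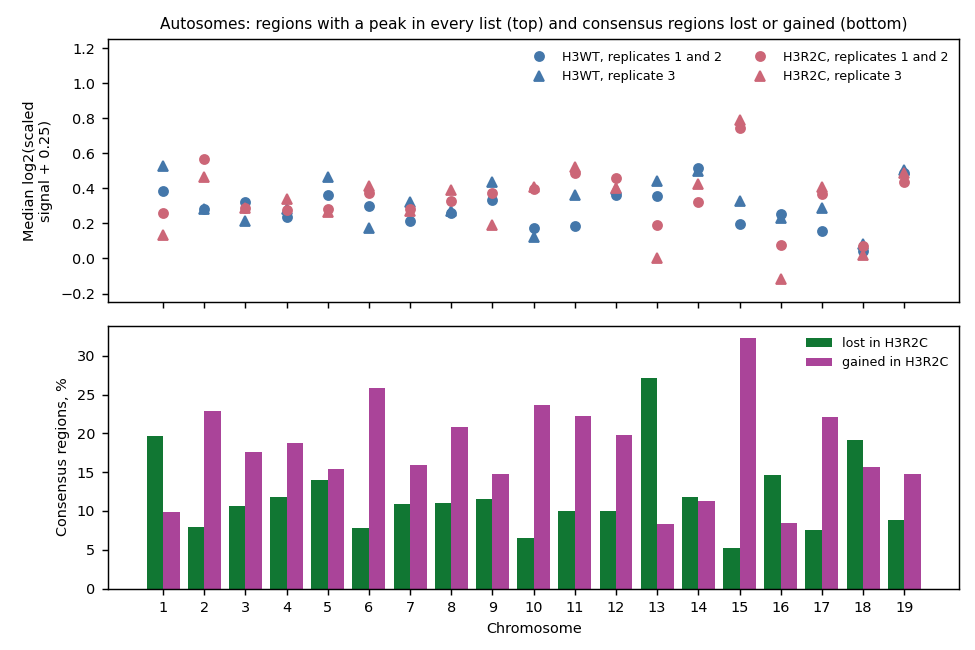
Top, median log2(scaled signal + 0.25) of regions with a peak in every list on each autosome, with a point for each library. Bottom, consensus regions lost or gained in H3R2C, in % of those of the chromosome, where chromosome 15 has the largest gained share (32.3%) and chromosome 13 the largest lost share (27.1%).

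Other libraries of the series were also read at the same regions. The sets compared were selected by different peak rules, so the shares are not matched base levels. Median H3WT signal was 0.404 in lost regions and 0.985 in regions with a peak in every list. Of the lost regions 54.4% had a peak in both H3R8C libraries and 49.9% in both H3R26C libraries, against 61.7% and 54.1% of all consensus regions. Among regions with a peak in every list these shares were 87.4% and 75%. No peak in either H3R8C library was present at 25.4% of lost and 77.1% of gained regions, against 25.3% of all consensus regions. For H3R26C the shares without a peak were 23.2%, 65.4% and 25.6%. Sorted by H3R8C signal, which the calls did not use, the share of H3WT regions that were lost was 39.97% where H3R8C had no peak, and then 25.4%, 13.9%, 9.58% and 4.59% in 4 equal groups from the weakest to the strongest. Losses were therefore most frequent at weak regions, which the named genes, chosen for high signal, do not represent. Peaks of the tagged histone (anti-HA) overlapped 7.17% to 8.48% of lost and 20.3% to 25.3% of gained regions over the 4 HA libraries of both genotypes, and 21.3% to 33.8% of regions with a peak in every list. Over all consensus regions the HA shares were 17.7% to 26.1%. The part of HA peaks in the result was not tested.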

How the data were processed

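Per the labels and the study's methods, the authors aligned single-end CUT&RUN reads of 75 bp to mm10 with Rsubread and called peaks for each sample with SEACR 1.3 (stringent, normalised, threshold 0.01). The deposited lists give the total signal of each peak (coverage summed over its bp) and its maximum signal, as whole numbers on a 50-bp grid, not scaled for depth, so a peak's signal rises with depth until it is scaled. Depth in reads cannot be read from these lists. Read counts, which the authors modelled, were not analysed here.

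The signal was summed per merged region and scaled as stated above. Tests used limma 3.58.1 (lmFit, eBayes with trend) in R 4.3.3 on log2(signal + 0.25), with Benjamini-Hochberg adjustment over all regions of all chromosomes at a threshold of 0.05. Log2 changes are on that scale and understate the change of weak regions. For regions with a peak in every list, changes and p-values are those of a fit over these regions alone, while counts for gene lists use the fit over all consensus regions. The fits were tested on simulated data. An exact permutation test of 2 against 2 libraries cannot give a p below 0.333, so none was used. Gene starts are the 5′ ends of protein-coding genes in GENCODE vM21, and a gene goes with the strongest region within 1 kb. Named regions are the 10 lost and 10 gained ones of highest signal with a start, the 10 lower and 10 higher ones of lowest p with a start and a peak in every list, the longest lost and gained ones without a start, the 5 windows of lowest p in each direction, runs of at least 3 neighbouring calls, and in each gene list the members with the largest difference of group means. Other list members were added as examples after their values were seen. The members and gene lists were chosen with earlier results of these data known. Replicates 3 of both genotypes deviated together only weakly (r = 0.0933), so equal numbers were not taken as pairs. Tables were made with Python 3.11.15, pandas 2.3.3 and pysam 0.24.0. A few genes of these lists are not reported here.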

Additional observations from a re-analysis of the deposited data

How the results depend on the processing

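With the adjusted p under 0.001, 0 regions were lower and 0 higher by limma over all consensus regions (3240 and 4327 at an unadjusted p under 0.05), 235 and 161 over regions with a peak in every list, and 20 and 8 over windows. With the upper 50% of peaks of each list, 1178 regions were lost, 1733 gained, 1564 lower and 2130 higher, and 492 and 518 among those with a peak in every list. An overlap of at least 50% gave 447 and 440 of the latter, and a fit of 4 genotypes 436 and 302. The maximum signal gave 0 and 0 of them, and 115 lower windows. A mean scaled signal of at least 0.25, which leaves fewer regions to test, gave 1317 lower and 1548 higher regions and 214 starts in higher regions. Counting all 3 labelled replicates, with the identical lists entered separately, gave 3979 lost and 9468 gained regions, 1868 and 1834 calls with a peak in every list, 412 and 463 windows, and 510 gained and 521 higher starts. With a replicate block, in which equal numbers were paired, limma gave 3007 lower and 4062 higher regions, 1017 and 996 with a peak in every list, 273 and 284 windows, and 800 and 418 starts, and no count moved by more than 1.5 times. Leaving out 1 list at a time gave 2139 to 3866 lost and 3738 to 8065 gained regions, 1795 to 4057 lower and 1625 to 8250 higher ones, and 521 to 720 and 289 to 765 with a peak in every list. The windows ran from 120 to 262 and from 124 to 282, and the starts from 353 to 465 lost, 209 to 364 gained, 463 to 563 lower and 116 to 418 higher. In these fits a genotype with 1 library was assumed to vary like the other. The counts of lost and gained regions and starts rise by the rule itself, which is looser with a list left out. Homeobox starts outside the Hox clusters in lower regions numbered 54 to 62 under the other scalings, 48 with the maximum signal and 33 to 55 with a list left out, against at most 4 in higher regions under any setting tried. Among regions with a peak in every list, 0 of them were lower with the maximum signal, 29 with the 50% overlap and 32 with 4 genotypes. Of 775 comparisons of named regions with an alternative, 748 kept their side of the threshold, 27 kept the direction only and 0 reversed. The cause of these shifts was not tested. Signal shared over windows by bp was an alternative chosen after seeing the data.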

Other observations

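Chromosome X stood apart from the autosomes described above: of 1824 regions with a peak in both H3WT libraries, 992 (54.4%) had no peak in either H3R2C library, while 22 regions were gained.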
